A study of Homo sapiens with 15 samples.

Results

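The response of SW480 cells to lipopolysaccharide (LPS) was compared between libraries labelled with a short hairpin RNA against PINT and libraries labelled without one. SW480 is a line from a human colon carcinoma, called an intestinal epithelial line in the labels. Wild-type cells exposed to PBS formed the Control group, and wild-type cells exposed to LPS at 1 µg/ml for 4 h formed the LPS group. Cells with a stable lentiviral hairpin against PINT received the same PBS or LPS exposure and formed the groups PINT shRNA1 and PINT shRNA1+LPS. Each of the 4 groups has 3 libraries, and the exposure time and the cell line are shared by all. No group in the labels carries a non-targeting hairpin, so the hairpin label and the lentiviral transduction cannot be told apart. Each gene has 2 LPS responses, the difference LPS minus Control and the difference PINT shRNA1+LPS minus PINT shRNA1. The interaction is the second response minus the first, on the scale of log2(FPKM + 0.5), where FPKM counts fragments relative to transcript length and to all fragments mapped. An interaction below 0 means that the response was more positive without the hairpin label. Of 57905 genes listed, 17214 reached 0.5 FPKM in 3 or more of the 12 libraries and were tested.

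LPS is a component of the outer membrane of Gram-negative bacteria. It is sensed by the receptor TLR4 with its partners MD-2 (LY96) and CD14, and adaptors such as MYD88 carry the signal to the IkB kinases, which release NF-kB dimers to the nucleus. There p65 (RELA) and its relatives turn on chemokines, adhesion molecules and their own inhibitors, and in epithelium these genes recruit leukocytes to the wall of the gut. PINT is a long non-coding RNA, and the title of the series links it to p65 and to EZH2, the enzyme of the Polycomb complex that methylates histone H3. The interaction asks whether the response to LPS depends on the hairpin label.

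The targeted transcript goes against the label. LINC-PINT (ENSG00000231721) was at 2.88, 2.56 and 2.51 FPKM in Control, at 2.40, 2.82 and 1.91 in LPS, at 4.55, 5.26 and 5.34 in PINT shRNA1 and at 3.54, 4.00 and 4.08 in PINT shRNA1+LPS. All 6 libraries labelled with the hairpin lay above all 6 without it, so the label is used below as a name only, and none of the directions shows what a loss of PINT does. The hairpin target site within the gene is not given in the labels. Relative depth (Control replicate 1 set to 1) was highest in the 3 PINT shRNA1+LPS libraries, up to 1.51, and no other library exceeded 1.05. The part of depth in the results was not tested. Epithelial markers (EPCAM, KRT8, KRT18, KRT19, CDH1, VIL1 and CDX2) were all found, and their summed level was 2343 to 2667 FPKM without the label and 1441 to 1607 with it. Of 15 leukocyte markers, FCGR3A was at 0 in every library and 10 stayed under 0.5 FPKM, with sums of 3.73 to 4.80 FPKM without the label and 4.45 to 6.10 with it. Fibroblast and endothelial markers summed to 1.31 to 1.74 FPKM without the label and 3.10 to 3.84 with it, and 12 of the 14 listed stayed under 0.5.

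The interaction was called for 22 of 17214 genes (0.128%; limma, adjusted p under 0.05), of which 16 were below 0 (0.0929%) and 6 above 0 (0.0349%). At an unadjusted p under 0.05 there were 1333 genes (7.74%), 719 below 0 and 614 above. Chemokines (CCL2, CCL7, CCL20, CXCL1), the cytokine LTB, the surface molecules SDC4 and ICAM1, the lipid phosphatase SGPP2 and the acute-phase gene SAA2 are among the 16, and these 9 are the members of the cytokine list and the list of other NF-kB targets that were called. All 16 rose on LPS without the hairpin label, where 1.57% of all genes rose. With the label, where 0.163% of all genes rose, 9 of the 16 rose too, by less, and 7 were not called. The 2 LPS responses share no library, but each shares its libraries with the interaction, so these counts describe the called genes and add no support.

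**Figure D1:**
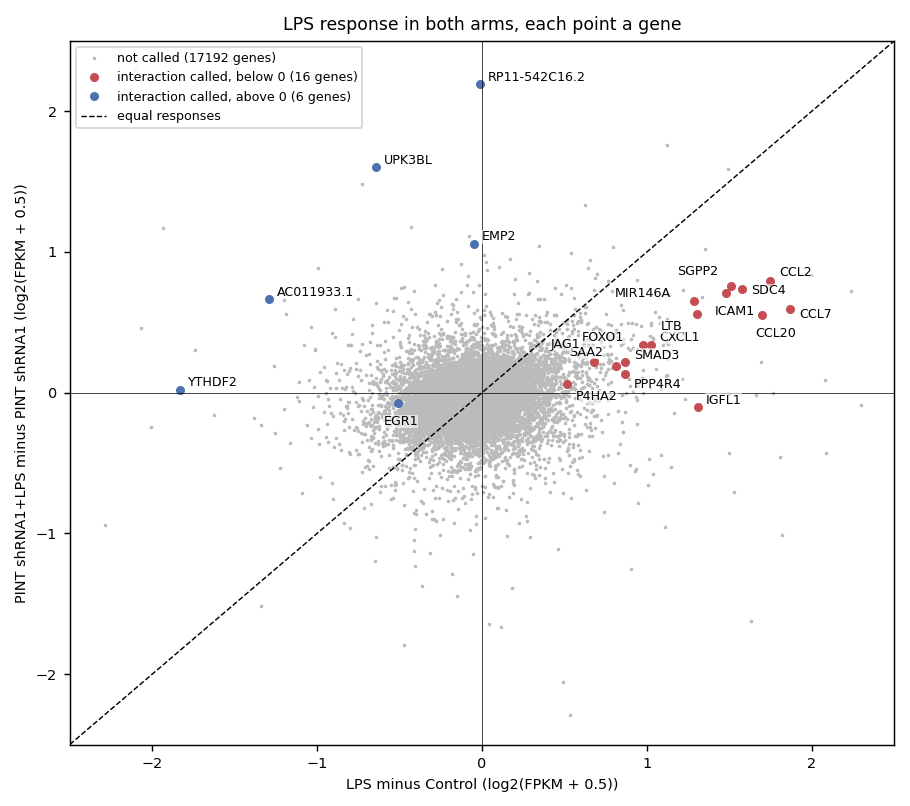
Each point is 1 of the 17214 genes tested, with its LPS minus Control difference on the x axis and its PINT shRNA1+LPS minus PINT shRNA1 difference on the y axis (both log2(FPKM + 0.5)). Red points (16 genes) have an interaction called below 0 and lie right of and below the dashed line of equal responses, blue points (6 genes) have one called above 0, and 5 genes lie outside the axes.

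Of the 16 genes, 4 encode chemokines. CCL2, which attracts monocytes, was at 19.8, 17.0 and 16.7 FPKM in Control and at 60.6, 62.2 and 59.6 in LPS. CCL2 in PINT shRNA1 was at 19.3, 17.5 and 18.0, and under LPS it reached 33.5, 31.6 and 31.0. The PBS levels overlapped, while the PINT shRNA1+LPS libraries lay between the PBS libraries and the LPS libraries. The response was 1.75 ± 0.065 (log2 difference ± SE) without the label and 0.79 ± 0.065 with it, an interaction of -0.96 ± 0.093 (limma, adjusted p = 0.00227). CCL7, a neighbour of CCL2 in the same chemokine cluster and also a monocyte attractant, was at 3.80, 3.54 and 3.59 FPKM in Control, 14.9, 15.8 and 13.2 in LPS, 3.28, 2.87 and 2.50 in PINT shRNA1 and 4.58, 4.46 and 4.75 in PINT shRNA1+LPS. No PINT shRNA1+LPS library came near the LPS libraries, and the interaction was -1.27 ± 0.13 (limma, adjusted p = 0.00265), with 31.9% of the log2 response kept.

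CCL20, the ligand of CCR6 that draws dendritic cells and lymphocytes to epithelium, was at 13.6, 9.94 and 10.0 FPKM in Control and 33.7, 39.2 and 38.5 in LPS. With the label it was at 7.82, 8.73 and 7.99 under PBS and at 13.8, 11.5 and 11.4 under LPS. Its highest Control library thus reached the level of PINT shRNA1+LPS, and the response with the label, 0.55 ± 0.12, did not pass the test (limma, adjusted p = 0.15). The CCL20 interaction was -1.15 ± 0.17 (limma, adjusted p = 0.0283). CXCL1, a neutrophil attractant acting on CXCR2, was at 19.8, 18.5 and 18.1 FPKM in Control, 37.9, 38.1 and 40.0 in LPS, 17.3, 16.8 and 16.0 in PINT shRNA1 and 22.1, 20.5 and 21.2 in PINT shRNA1+LPS. The 4 groups of CXCL1 did not overlap, and its interaction was -0.68 ± 0.073 (limma, adjusted p = 0.00319), with 33.4% of the log2 response kept. LTB, a membrane-bound partner of lymphotoxin alpha, was at 18.9, 18.5 and 16.9 FPKM in Control, 47.6, 45.6 and 43.0 in LPS, 20.5, 18.9 and 22.0 in PINT shRNA1 and 31.8, 29.6 and 29.6 in PINT shRNA1+LPS. Its PBS levels did not differ by call (hairpin label minus Control 0.17, limma, adjusted p = 0.0837), and the interaction was -0.74 ± 0.095 (limma, adjusted p = 0.0103).

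**Figure D2:**
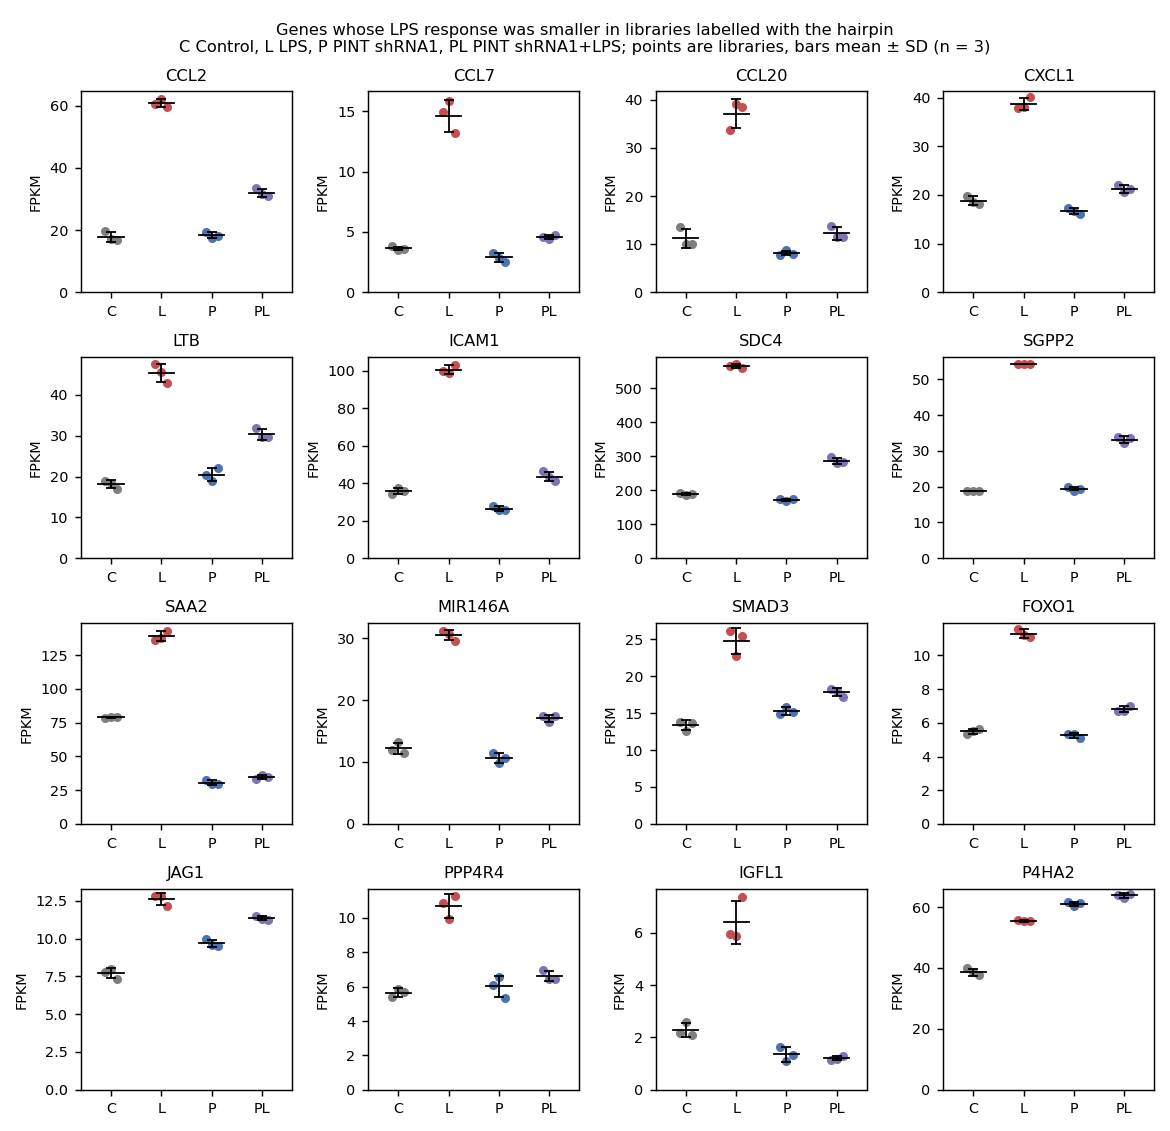
FPKM of the 16 genes with an interaction called below 0, 1 panel per gene (linear axis from 0), with points for the 12 libraries and bars for the mean ± SD (n = 3) of Control, LPS, PINT shRNA1 and PINT shRNA1+LPS. In 15 panels the 3 LPS libraries lie above the other 9 libraries (2.77% of all genes tested), and P4HA2 is the exception.

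SDC4 and ICAM1 encode cell surface proteins, and NF-kB is known to induce both. SDC4, a heparan sulfate proteoglycan that binds chemokines and matrix at the cell surface, was at 193, 187 and 188 FPKM in Control, 566, 570 and 559 in LPS, 174, 168 and 172 in PINT shRNA1 and 296, 280 and 282 in PINT shRNA1+LPS. The libraries of a group lay close together and no groups overlapped. SDC4 rose 2.99-fold on LPS without the label and 1.67-fold with it, and its interaction of -0.84 ± 0.043 had the joint lowest adjusted p of all genes tested (limma, adjusted p = 9.34e-06). ICAM1, the adhesion molecule that leukocyte integrins bind, was at 34.3, 37.5 and 35.5 FPKM in Control, 99.6, 99.0 and 103 in LPS, 27.9, 25.6 and 25.8 in PINT shRNA1 and 46.3, 43.1 and 41.2 in PINT shRNA1+LPS. It was lower with the label under PBS (-0.43, limma, adjusted p = 0.000249) and lower still under LPS (-1.20, limma, adjusted p = 1.3e-07), giving an interaction of -0.77 ± 0.077 (limma, adjusted p = 0.00245). GENCODE 29 places 2 antisense genes over ICAM1, and since the strand of counting is not stated, their reads cannot be told apart from those of ICAM1. SDC4, SGPP2, EMP2, FOXO1, JAG1, SMAD3, IGFL1 and UPK3BL also overlap annotated genes, and how those reads were split is not stated.

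SGPP2, a phosphatase that breaks down sphingosine 1-phosphate, was at 18.7, 18.8 and 18.7 FPKM in Control and at 54.3, 54.4 and 54.3 in LPS. In the libraries with the label it was at 19.8, 18.9 and 19.4 under PBS and at 33.8, 32.0 and 33.6 under LPS. Its PBS levels did not differ by call (limma, adjusted p = 0.398), so the interaction of -0.75 ± 0.053 (limma, adjusted p = 0.000117) lay in the LPS libraries, where 50.2% of the log2 response was kept. SAA2, an acute-phase apolipoprotein, was at 78.5, 79.1 and 79.1 FPKM in Control, 136, 138 and 143 in LPS, 32.7, 29.4 and 29.6 in PINT shRNA1 and 33.4, 36.5 and 34.5 in PINT shRNA1+LPS. The label alone went with a difference of -1.36 under PBS (limma, adjusted p = 2.71e-08), larger than the LPS response of 0.81, and the interaction was -0.63 ± 0.069 (limma, adjusted p = 0.00364). SAA2 is nearly identical to SAA1 and overlaps the read-through gene SAA2-SAA4, so the split of reads among them is uncertain, and SAA1 itself was not called (-0.39 ± 0.071, limma, adjusted p = 0.101).

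The gene listed as MIR146A (ENSG00000253522) is the long non-coding host transcript named MIR3142HG in GENCODE 29, and its value says nothing of the mature miRNA, a repressor of TLR adaptor signalling. The host transcript was at 12, 13.2 and 11.5 FPKM in Control, 31.2, 30.7 and 29.5 in LPS, 11.5, 9.90 and 10.7 in PINT shRNA1 and 17.3, 16.4 and 17.4 in PINT shRNA1+LPS. Its PBS levels did not differ by call (limma, adjusted p = 0.0566), the levels under LPS lay far apart, and 50.8% of the log2 response was kept. The interaction was -0.63 ± 0.093 (limma, adjusted p = 0.0283).

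Promoters of the genes with a smaller response are shown because the genes move together and several are known NF-kB targets. Of the 16 genes, 14 (all but CCL2 and SAA2) had an entry in the RefSeq table of promoters (GRCh38.p14, 250 bases before to 50 after the start), and the entries of all 14 were searched on both strands. A loose NF-kB pattern, GGG and CC with any 5 bases between them, occurred in 12 of these 14 (85.7%), in 4 of 4 genes with an interaction above 0 (100%) and in 79.6% of the 11120 tested genes with an entry. A stricter pattern, GGG, any 2 bases and TTTCC, was chosen after the data were seen and is contained in the loose one. It occurred in 5 of the 14 (35.7%), in 0 of the 4 and in 322 of the 11120 (2.9%). A match is a description of the letters and not a bound site. The 5 genes with the stricter pattern are CXCL1 (chr4:73869143-73869392, plus strand), CCL20 (chr2:227813592-227813841, plus strand), LTB (chr6:31582426-31582675, minus strand), SGPP2 (chr2:222423738-222423987, plus strand) and MIR3142HG (chr5:160468001-160468250, plus strand). Their 250 bases before the start follow from RefSeq, 5′ to 3′ on the strand of the gene, with each match to the stricter pattern or its reverse complement in capitals:
CXCL1: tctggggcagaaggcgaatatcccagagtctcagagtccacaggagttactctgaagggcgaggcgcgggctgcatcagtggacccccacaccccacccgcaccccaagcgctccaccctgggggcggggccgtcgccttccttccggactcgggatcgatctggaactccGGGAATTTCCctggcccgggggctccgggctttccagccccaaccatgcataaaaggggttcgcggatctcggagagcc
CCL20: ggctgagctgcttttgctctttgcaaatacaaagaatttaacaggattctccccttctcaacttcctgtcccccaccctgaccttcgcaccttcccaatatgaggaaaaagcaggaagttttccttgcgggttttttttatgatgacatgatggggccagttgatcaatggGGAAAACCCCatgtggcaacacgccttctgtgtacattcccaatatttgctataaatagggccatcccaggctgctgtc
LTB: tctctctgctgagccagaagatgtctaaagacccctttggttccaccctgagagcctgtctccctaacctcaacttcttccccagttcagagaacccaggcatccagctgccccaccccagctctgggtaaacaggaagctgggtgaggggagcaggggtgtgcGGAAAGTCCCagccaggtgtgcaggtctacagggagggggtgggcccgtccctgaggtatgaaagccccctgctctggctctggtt
SGPP2: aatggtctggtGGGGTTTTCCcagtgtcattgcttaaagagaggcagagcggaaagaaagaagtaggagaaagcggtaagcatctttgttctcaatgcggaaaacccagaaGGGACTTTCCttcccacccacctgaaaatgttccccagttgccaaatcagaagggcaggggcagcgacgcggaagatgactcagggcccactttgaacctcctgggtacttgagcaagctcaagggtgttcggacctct
MIR3142HG: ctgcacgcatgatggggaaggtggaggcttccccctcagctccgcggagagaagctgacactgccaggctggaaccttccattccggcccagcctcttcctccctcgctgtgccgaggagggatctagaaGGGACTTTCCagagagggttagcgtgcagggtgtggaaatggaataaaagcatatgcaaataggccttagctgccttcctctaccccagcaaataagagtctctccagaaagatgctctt
The match began 79 bases before the start in both CXCL1 and CCL20, 86 bases before it in LTB and 120 bases before it in MIR3142HG, and SGPP2 held 2 matches, at 239 and 139 bases. In CCL20 and LTB the match lay on the opposite strand.

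Among the genes of the 16 outside those lists, SMAD3, which carries TGF-beta signals to the nucleus, was at 13.8, 12.6 and 13.7 FPKM in Control, 26.1, 22.8 and 25.4 in LPS, 14.9, 15.8 and 15.2 in PINT shRNA1 and 18.3, 17.9 and 17.3 in PINT shRNA1+LPS. FOXO1, a transcription factor held out of the nucleus by insulin and AKT signals, was at 5.33, 5.53 and 5.63 FPKM in Control, 11.6, 11.2 and 11.1 in LPS, 5.32, 5.36 and 5.11 in PINT shRNA1 and 6.70, 6.69 and 7.01 in PINT shRNA1+LPS. Both genes rose close to 2-fold without the label (SMAD3 1.85-fold, FOXO1 2.06-fold), against 1.17-fold and 1.29-fold with it. The interaction was -0.65 ± 0.086 for SMAD3 (limma, adjusted p = 0.0136) and -0.64 ± 0.074 for FOXO1 (limma, adjusted p = 0.00551). SMAD3 was higher with the label under PBS and lower with it under LPS.

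JAG1, a ligand of Notch receptors, was at 7.80, 7.97 and 7.35 FPKM in Control, 12.8, 12.8 and 12.2 in LPS, 9.98, 9.59 and 9.53 in PINT shRNA1 and 11.5, 11.3 and 11.2 in PINT shRNA1+LPS. It too was higher with the label under PBS and lower under LPS, and its interaction was small, at -0.46 ± 0.071 (limma, adjusted p = 0.0404). PPP4R4, a regulatory subunit of protein phosphatase 4, was at 5.38, 5.89 and 5.67 FPKM in Control, 10.9, 9.94 and 11.3 in LPS, 6.12, 6.55 and 5.37 in PINT shRNA1 and 6.99, 6.47 and 6.45 in PINT shRNA1+LPS. Only its LPS libraries stood apart, and the interaction was -0.73 ± 0.11 (limma, adjusted p = 0.0404).

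IGFL1, a secreted protein of the insulin growth factor-like family, had the most negative interaction of the called genes. It was at 2.16, 2.57 and 2.09 FPKM in Control, 5.95, 5.89 and 7.37 in LPS, 1.63, 1.09 and 1.33 in PINT shRNA1 and 1.14, 1.18 and 1.31 in PINT shRNA1+LPS. It rose 2.81-fold without the label, while with it the response was -0.11 ± 0.13 (limma, adjusted p = 0.862), and the interaction was -1.42 ± 0.18 (limma, adjusted p = 0.0101). P4HA2, a subunit of the prolyl hydroxylase that modifies collagen, differed from the other 15 in its levels. It was at 39.8, 38.5 and 37.5 FPKM in Control, 55.7, 55.3 and 55.3 in LPS, 61.7, 60.4 and 61.4 in PINT shRNA1 and 64.1, 63.0 and 64.4 in PINT shRNA1+LPS. The label went with a higher P4HA2 level under both exposures, so its smaller response (interaction -0.45 ± 0.047, limma, adjusted p = 0.00265) started from a PBS level above that of the LPS group. P4HA2 overlaps 4 genes on the opposite strand in GENCODE 29.

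Across the 16 genes, the level under LPS was lower with the hairpin label in 15 (11.6% of all genes tested), while the level under PBS was lower in 7 (10.3%), higher in 3 (16.9%) and not called in 6. Calls for the label in either direction covered 27.3% of all genes under PBS and 29.2% under LPS. The share of the log2 response kept ran from -8.03% (IGFL1) to 50.8% (the MIR146A host). The difference of differences on the linear FPKM scale had the same sign as the log2 interaction for all 22 called genes. In all 22, every pairwise LPS response without the label also lay on 1 side of every pairwise response with it, as did 2.25% of all genes for the lower and 1.71% for the higher direction. The called genes were chosen from the same values, so these counts are descriptions.

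Of the 6 genes with an interaction above 0, YTHDF2, a reader of m6A marks that directs RNA to decay, had the joint lowest adjusted p. It was at 27.8, 28.9 and 27.6 FPKM in Control and at 7.19, 6.96 and 8.61 in LPS. With the label it was at 38.1, 36.5 and 35.8 under PBS and at 37.1, 37.1 and 38.0 under LPS. YTHDF2 thus fell by 1.83 on the log2 scale without the label, with a response of 0.02 ± 0.068 with it (limma, adjusted p = 0.955) and an interaction of 1.85 ± 0.096 (limma, adjusted p = 9.34e-06). It was the sole member of the list of 20 m6A readers, writers and erasers with a called interaction (1 of 20, against 0.128% of all genes). EMP2, a tetraspan protein of epithelial membranes, showed another shape, at 17.6, 17.8 and 17.9 FPKM in Control, 17.1, 16.8 and 17.7 in LPS, 6.87, 6.55 and 5.97 in PINT shRNA1 and 14.3, 14.1 and 13.5 in PINT shRNA1+LPS. Without the label it did not move by call (-0.05, limma, adjusted p = 0.723), and with the label it rose 2.16-fold from a lower PBS level, an interaction of 1.10 ± 0.078 (limma, adjusted p = 0.000117).

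EGR1, an immediate-early transcription factor, was at 26.6, 26.6 and 25.9 FPKM in Control, 19.2, 18.2 and 17.7 in LPS, 18.3, 19.0 and 19.0 in PINT shRNA1 and 17.8, 17.9 and 17.6 in PINT shRNA1+LPS. The 3 Control libraries were high and the other 9 lay together, so the interaction of 0.43 ± 0.059 (limma, adjusted p = 0.0178) came with a PBS level already lower with the label (-0.48, limma, adjusted p = 2.18e-05). UPK3BL, a uroplakin-like gene with near-identical copies, was at 0.360, 1.11 and 0.446 FPKM in Control, 0.0448, 0.283 and 0.308 in LPS, 0.858, 0.533 and 0.655 in PINT shRNA1 and 3.90, 2.90 and 2.51 in PINT shRNA1+LPS. Its copies can share reads, so the value is uncertain, and its interaction of 2.24 ± 0.35 was the closest to the threshold (limma, adjusted p = 0.0493).

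The remaining 2 have clone-based names and fall outside the rule for named genes, so they were chosen after their values were seen. RP11-542C16.2 was at 1.47, 1.59 and 2.97 FPKM in PINT shRNA1+LPS and at 0 to 0.0678 in the other 9 libraries. It passed the filter on low values only through the PINT shRNA1+LPS group, where it was high, so it had to differ. It overlaps GPS2 and NEURL4 on the same strand, and how reads were split among them is not stated. AC011933.1 was at 0.789, 0.948 and 1.19 FPKM in Control, 0.102, 0.0917 and 0.107 in LPS, 0.252, 0.175 and 0.0641 in PINT shRNA1 and 0.736, 0.405 and 0.515 in PINT shRNA1+LPS. AC011933.1 is not listed in GENCODE 29. It needed the Control libraries, where it was highest, to pass the filter on low values, so its call adds little support. Interactions were 2.20 ± 0.27 and 1.95 ± 0.23 (limma, adjusted p = 0.00769 and 0.00551), at levels where the pseudocount weighs on the size. With a pseudocount of 0.1 or 1 in place of 0.5, the values were 4.00 and 1.52 for RP11-542C16.2, 3.76 and 1.25 for AC011933.1 and 3.28 and 1.69 for UPK3BL.

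**Figure D3:**
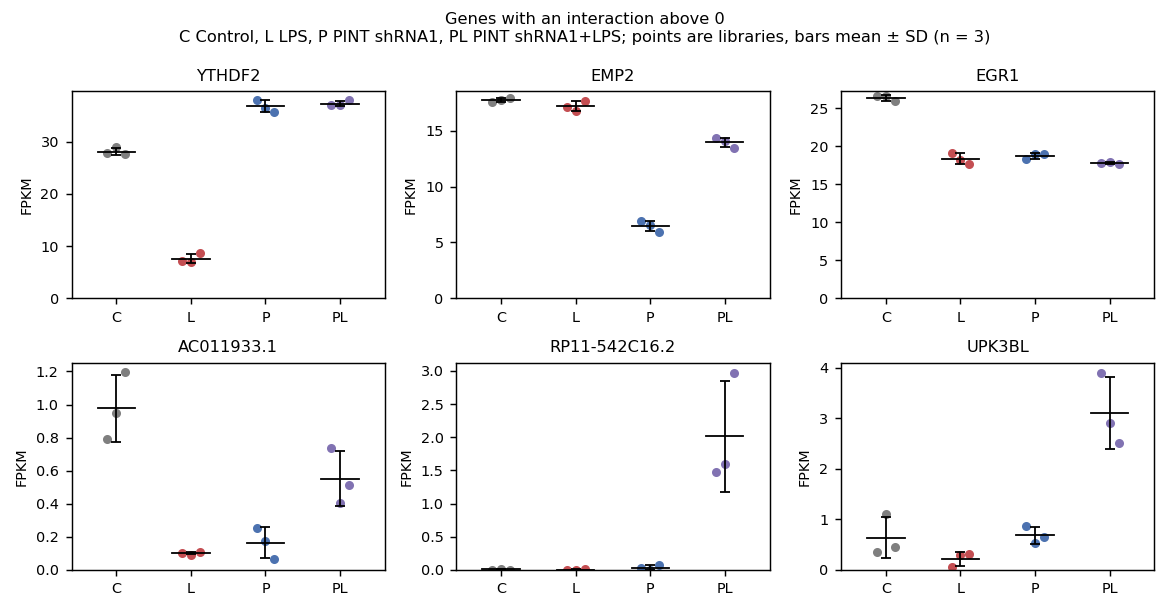
FPKM of the 6 genes with an interaction called above 0, 1 panel per gene (linear axis from 0), with points for the 12 libraries and bars for the mean ± SD (n = 3) of Control, LPS, PINT shRNA1 and PINT shRNA1+LPS. YTHDF2 is low in the LPS group alone, EMP2 is lowest in PINT shRNA1, and UPK3BL and RP11-542C16.2 are high in PINT shRNA1+LPS.

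Gene lists were chosen with earlier results of these data known, and they include called genes. Their counts are descriptions and add no support. Of 30 inflammatory cytokines and chemokines, 21 were tested and 5 were called, all below 0, where 0.0929% of all genes were called below 0. Below 0 in sign were 20 of the 21 (95.2%, against 50.3% of all genes tested), and 12 were below 0 at an unadjusted p under 0.05 (57.1%, against 4.18%). The median interaction of the list was -0.48, and its median LPS response was 0.76 without the label and 0.23 with it, where all genes had medians of -0.0014, -0.038 and -0.037. The LPS response was called higher in 14 members without the label and in 4 with it, against 1.57% and 0.163% of all genes. Among members that did not pass, IL8, a neutrophil attractant, was at 12.6, 11.3 and 9.93 FPKM in Control, 24.2, 22.8 and 24.6 in LPS, 12, 10.4 and 13.6 in PINT shRNA1 and 15.2, 12.5 and 12.9 in PINT shRNA1+LPS. Its interaction was -0.88 ± 0.16 (limma, adjusted p = 0.0863). Not every cytokine gene had this pattern, since IL23A, a subunit of interleukin 23, had responses of 0.55 and 0.48 and an interaction of -0.07 ± 0.12 (limma, adjusted p = 0.915), and LIF had the sole positive value, 0.08 ± 0.087 (limma, adjusted p = 0.863).

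Of the other NF-kB target genes, 36 were tested and 4 were called below 0 (SDC4, SGPP2, ICAM1 and SAA2), against 0.0929% of all genes. At an unadjusted p under 0.05, 14 were below 0 and 1 above (38.9% and 2.78%, against 4.18% and 3.57% of all genes). The median interaction was -0.24, and 28 of the 36 were below 0 in sign (77.8%, against 50.3% of all genes). TNFRSF9, a receptor of the TNF family, missed the threshold at -0.66 ± 0.11 (limma, adjusted p = 0.0689), as did CD83, a surface protein of activated cells, at -0.50 ± 0.10 (limma, adjusted p = 0.172). TNFAIP2, a TNF-induced gene, varied among its LPS libraries. It was at 27.4, 22.7 and 19.8 FPKM in Control, 135, 73.3 and 138 in LPS, 36.6, 35.7 and 34.4 in PINT shRNA1 and 61.0, 59.4 and 56.9 in PINT shRNA1+LPS. The interaction of TNFAIP2 was -1.51 ± 0.29 (limma, adjusted p = 0.124) with all libraries and -1.81 without LPS replicate 2 (limma, adjusted p = 0.000593). Without any other single library it was -1.355 to -1.633 and was not called (limma, adjusted p of 0.124 to 0.274).

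Of 20 NF-kB subunits, IkB kinases and inhibitors tested, 0 were called for the interaction (limma), where 0.128% of all genes were called. At an unadjusted p under 0.05, 7 were below 0 and 0 above (35% and 0%, against 4.18% and 3.57% of all genes). The median interaction of the 20 was -0.25, and 17 were below 0 in sign (85%, against 50.3% of all genes). The LPS response was called higher in 11 without the label and in 4 with it, against 1.57% and 0.163% of all genes. NFKB1, the precursor of the p50 subunit, rose from a mean of 21.0 to 37.5 FPKM without the label and from 22.8 to 30.2 with it, with an interaction of -0.42 ± 0.085 (limma, adjusted p = 0.158). NFKBIA, the inhibitor that ends a round of NF-kB activity, had an interaction of -1.12 ± 0.27 (limma, adjusted p = 0.268). For TNFAIP3, a deubiquitinase that restrains the pathway, the responses were 0.84 and 0.62 and the interaction -0.22 ± 0.11 (limma, adjusted p = 0.683). BIRC3, an inhibitor of apoptosis from the list of other NF-kB targets, had responses of 1.35 and 1.02 and an interaction of -0.33 ± 0.16 (limma, adjusted p = 0.674). None of these 4 genes was called. TNFAIP3 and BIRC3 were added after their values were seen, and not all of the 20 were below 0.

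**Figure D4:**
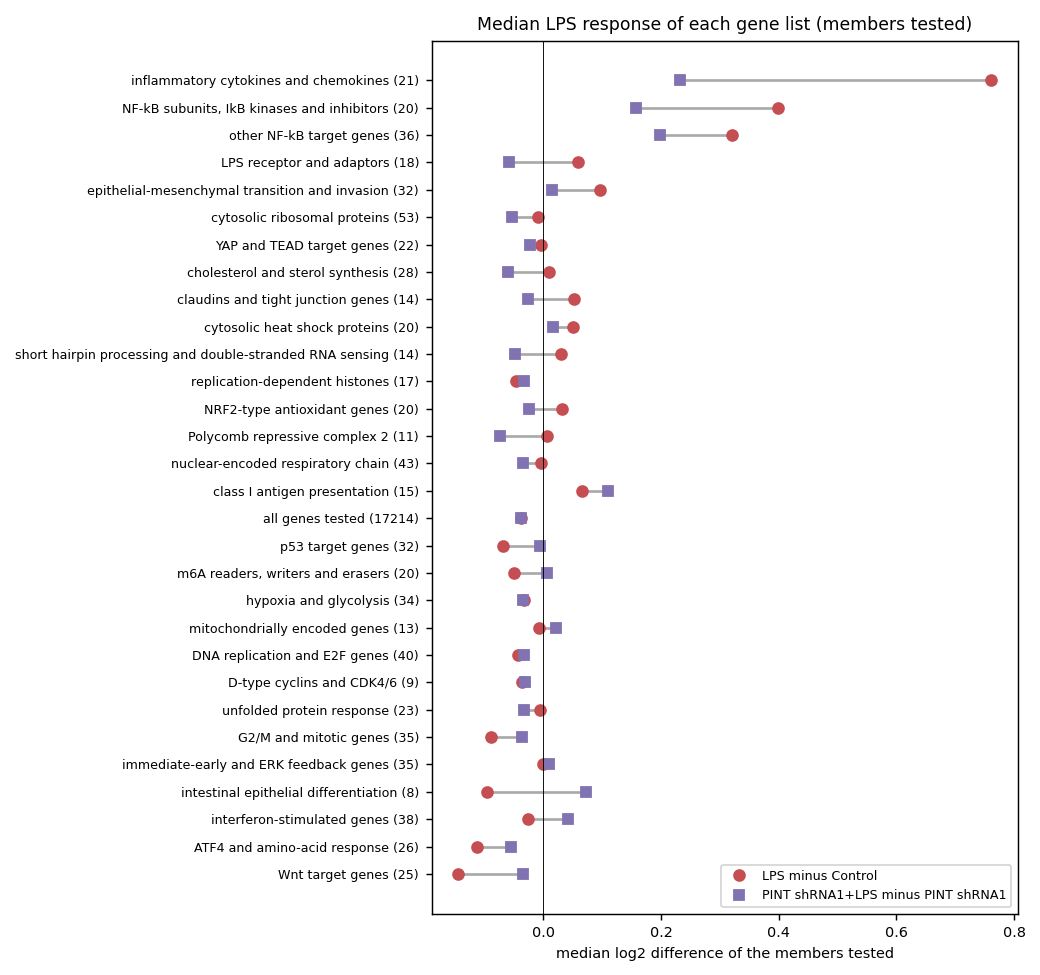
Median LPS response of the tested members of each gene list (numbers in brackets), as a circle for LPS minus Control and a square for PINT shRNA1+LPS minus PINT shRNA1, in log2 units. The cytokine list has the widest gap, from 0.76 to 0.23, and for all genes tested the circle and the square coincide.

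Wnt target genes, which are highly active in this line, had a median interaction of the opposite sign. Of 25 tested, 0 were called for the interaction by limma, where 0.128% of all genes were called. At an unadjusted p under 0.05, 9 were above 0 and 1 below (36% and 4%, against 3.57% and 4.18% of all genes). The median was 0.14, and 5 of the 25 were below 0 in sign (20%, against 50.3% of all genes). On LPS 5 of them fell and 1 rose without the label (1.19% and 1.57% of all genes), against 0 called with it. NKD1, a feedback inhibitor of Wnt signalling, went from a mean of 85.6 to 65.8 FPKM without the label and from 111 to 101 with it, with an interaction of 0.24 ± 0.066 (limma, adjusted p = 0.328). ASCL2, a transcription factor of intestinal stem cells, went from 10.8 to 7.84 FPKM and from 6.92 to 6.90, with an interaction of 0.44 ± 0.13 (limma, adjusted p = 0.391). The 1 member below 0 at an unadjusted p under 0.05 was DKK1, a secreted Wnt antagonist. DKK1 rose without the label (0.49) and had an interaction of -0.52 ± 0.095 (limma, adjusted p = 0.0941).

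Among 35 immediate-early and ERK feedback genes, EGR1 was the sole call, and among 34 hypoxia and glycolysis genes it was P4HA2. No member of the other lists was called by limma, where 0.128% of all genes were called. At an unadjusted p under 0.05, 4.18% of all genes tested were below 0 and 3.57% above. At that level these lists included 2 interferon-stimulated genes below 0 and 1 above of 38 (5.26% and 2.63%). Of 32 p53 targets, 3 were below and 1 above (9.38% and 3.12%), and of 11 genes of Polycomb repressive complex 2 there were 0. Of 53 cytosolic ribosomal protein genes, 8 were below 0 (15.1%) and 0 above at that level, with a small median of -0.06. Below 0 in sign were 41 of the 53 (77.4%, against 50.3% of all genes tested).

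Of 18 LPS receptor and adaptor genes tested, 0 were called by limma. With 0.128% of all genes called, a count of 0 in a list of this size says little. At an unadjusted p under 0.05, 2 were below 0 and 1 above (11.1% and 5.56%, against 4.18% and 3.57% of all genes). TLR4 was at 5.43, 6.32 and 5.81 FPKM in Control, 5.00, 4.74 and 5.24 in LPS, 2.51, 2.07 and 2.42 in PINT shRNA1 and 2.30, 2.17 and 2.08 in PINT shRNA1+LPS. The receptor was thus lower in all 6 libraries with the hairpin label, by 1.17 (log2) under PBS (limma, adjusted p = 5.47e-06), at an interaction of 0.13 ± 0.12 (limma, adjusted p = 0.83). The part of this difference in the smaller responses was not tested. IRAK2, a kinase of the TLR pathway that NF-kB itself induces, had an interaction of -0.60 ± 0.12 (limma, adjusted p = 0.173). RELA without the label was at 13.0 ± 3.39 FPKM under PBS and 15.6 ± 1.69 under LPS, and with it at 22.2 ± 1.24 and 20.3 ± 6.13 (SD, n = 3). It was higher with the label under PBS (0.78, limma, adjusted p = 0.0247), and its interaction of -0.46 ± 0.32 had a wide error (limma, adjusted p = 0.773). EZH2 lay between 29.4 and 30.7 FPKM in the 4 group means, with an interaction of 0.09 ± 0.064 (limma, adjusted p = 0.791). LINC-PINT itself had an interaction of -0.20 ± 0.17 (limma, adjusted p = 0.817), and its neighbour MKLN1 one of 0.25 ± 0.24 (limma, adjusted p = 0.838).

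Just outside the threshold, at an adjusted p between 0.05 and 0.1, stood 14 genes, 13 of them with an interaction below 0. OXTR, the oxytocin receptor, was at 1.15, 1.51 and 1.24 FPKM in Control, 3.49, 3.27 and 3.38 in LPS, 2.15, 2.20 and 2.00 in PINT shRNA1 and 2.84, 2.90 and 2.82 in PINT shRNA1+LPS, with an interaction of -0.76 ± 0.12 (limma, adjusted p = 0.0529). CLDN1, a tight junction claudin, rose from 31.1 ± 1.44 to 47.4 ± 0.668 FPKM without the label and was at 8.40 ± 0.229 and 9.66 ± 0.273 with it (SD, n = 3), with an interaction of -0.41 ± 0.066 (limma, adjusted p = 0.0529). ICOSLG, a costimulatory ligand, and WNT5A, a non-canonical Wnt ligand, had interactions of -0.65 ± 0.11 and -0.36 ± 0.058 (limma, adjusted p = 0.0529 and 0.0552). MSX1, a homeobox gene, was the member above 0, at 0.46 ± 0.083 (limma, adjusted p = 0.0941), and fell by 0.63 on LPS without the label. Also in this range were GPRC5B, TNFRSF9, HIVEP2, PEX10, IL8, ATF7IP and DKK1.

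LPS with the hairpin label still changed 32 genes (0.186%), 28 of them higher and 4 lower (0.0232%), against 475 (2.76%) without it, 271 higher and 204 lower. With median scaling of the libraries the split without the label was 440 higher and 116 lower. Over the 28 genes that rose with the label, the median response was 0.53 with it and 0.83 without it, and the response was larger without it in 20 of the 28. These genes were chosen by the response with the label, so the medians are a description.

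The error of the interaction sets what could be called. Its median SE was 0.16 (log2), and at that SE a difference of 1.04 would be needed for a call. With the genes split into 4 equal classes of mean level, from the lowest to the highest, the difference needed was 1.67, 1.15, 0.81 and 0.58, and the smallest interaction called was 0.43. These figures hold for the median SE of a class, and genes with a smaller SE, such as FOXO1 and PPP4R4, were called at smaller differences. The calls of 12 genes held in all 23 alternative fits: CCL2, CCL7, CXCL1, LTB, SDC4, ICAM1, SGPP2, SAA2, FOXO1, P4HA2, YTHDF2 and EMP2. AC011933.1 was tested and called in 22 of them, but it passed the filter only with the Control libraries, where it was highest. RP11-542C16.2 was called in the 20 in which it was tested, but it drops below the filter without any 1 PINT shRNA1+LPS library, so this says nothing of its stability. The calls of the other 8 (IGFL1, SMAD3, EGR1, CCL20, the MIR146A host, PPP4R4, JAG1 and UPK3BL) were lost in 1 to 15 of 23 alternative fits. IGFL1 lost its call only with a term for the replicate number (limma, adjusted p = 0.0509) and kept it in all 12 fits without 1 library. Leaving out LPS replicate 3 or PINT shRNA1+LPS replicate 3 ended the call of SMAD3 (limma, adjusted p = 0.0524 and 0.059). JAG1 lost its call when any of the 12 libraries was left out, with adjusted p of up to 0.142 (limma). For the calls of the other 5, the libraries named next are those that could be left out with the call kept. They were Control replicates 1 and 2 for UPK3BL, Control replicate 2 and PINT shRNA1 replicate 2 for the MIR146A host, LPS replicate 2 and PINT shRNA1 replicate 3 for PPP4R4, and replicate 1 of Control, LPS and PINT shRNA1+LPS for CCL20. EGR1 kept its call without Control replicate 3, LPS replicates 1 and 2, and PINT shRNA1 replicates 2 and 3. The largest adjusted p over these fits was 0.132 for UPK3BL, 0.0999 for the MIR146A host, 0.142 for PPP4R4, 0.0993 for CCL20 and 0.0756 for EGR1 (limma).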

How the data were processed

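The authors deposited a table of FPKM for Ensembl genes. Tools named in the submitters' processing notes are HISAT2 2.1.0, StringTie 1.3.4d and fastp, with the GRCh37/hg19 build, and no roles are given. Of its columns, 12 were used and 6 match no sample in the labels used here. The labels list 15 samples, since each RNA number of PINT shRNA1 has 2, but the table has 1 column for each number, and whether it merges both is not recorded. Nothing in the labels says that replicates came from separate cultures, so the spread behind a p-value may be technical.

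The 12 libraries entered 1 group-means fit in limma 3.58.1 (R 4.3.3) on log2(FPKM + 0.5), moderated with an intensity trend. Genes needed at least 0.5 FPKM in at least 3 libraries. Contrasts were two-sided, with Benjamini-Hochberg adjustment over all 17214 genes and calls at an adjusted p under 0.05. FPKM keeps no read counts, so counting error is unknown. Relative depth is the commonest ratio between libraries among values of 0.01 to 0.3 FPKM. The fit was tested on simulated data.

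Named genes were the 15 highest and 15 lowest called interactions whose mean reached 1 FPKM in a group, without clone-based names, 5 fixed genes (LINC-PINT, MKLN1, EZH2, RELA, TLR4), at most 6 members of a list discussed, by smallest p, and the 8 largest LPS responses without the hairpin label. IL23A, LIF, CD83, TNFAIP3, BIRC3 and the genes just outside the threshold were added after their values were seen. Not all genes chosen this way are reported here. The members and the 32 gene lists were chosen with earlier results of these data known. Promoters came from RefSeq (GRCh38.p14) and gene overlaps from GENCODE 29, both of another build than the table, used by name only.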

Additional observations from a re-analysis of the deposited data

Results flagged for a closer look

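In 22 genes the LPS response differed between the libraries with and without the hairpin label by a test of the difference itself (limma, adjusted p under 0.05, 0.128% of 17214 genes). Below 0, from the most negative, the interactions were -1.42 for IGFL1, -1.27 for CCL7, -1.15 for CCL20, -0.96 for CCL2, -0.84 for SDC4, -0.77 for ICAM1, -0.75 for SGPP2, -0.74 for LTB, -0.73 for PPP4R4, -0.68 for CXCL1, -0.65 for SMAD3, -0.64 for FOXO1, -0.63 for the MIR146A host, -0.63 for SAA2, -0.46 for JAG1 and -0.45 for P4HA2. Above 0 they were 0.43 for EGR1, 1.10 for EMP2, 1.85 for YTHDF2, 1.95 for AC011933.1, 2.20 for RP11-542C16.2 and 2.24 for UPK3BL. RP11-542C16.2 passed the filter on low values only through the PINT shRNA1+LPS group, where it was high. It had to differ, so its call adds no support. AC011933.1 needed the Control libraries, where it was highest, to pass that filter, so its call adds little support. YTHDF2 was at 6.96 to 8.61 FPKM in LPS and at 27.6 to 38.1 in the other 9 libraries. Single libraries far from their group were not tested by a rule, since each group has 3.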

How the results depend on the processing

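The interaction gave 17 to 27 calls, against 22, under every alternative scaling, pseudocount, low-value filter, moderation, library weighting and left-out library, and none of the 22 called interactions changed sign in a fit in which the gene was tested (AC011933.1 was untested in 1 and RP11-542C16.2 in 3). With an absolute log2 difference of at least 1 it gave 8 calls, 3 of them below 0, and that threshold left 41 genes for the LPS response without the label, 5 with it, 240 for the label under PBS, 288 under LPS, 2 cytokines and 0 other NF-kB targets. Replicate numbers did not pair the libraries (r of deviations for 18 same-numbered pairs -0.048 to 0.057), and the replicate block gave 14 interaction calls (10 below 0), all among the 22, with 311 calls for the LPS response without the label and 17 with it. For the LPS response with the label, 32 calls became 59 with median scaling, 57 with quantile normalization, 18 without the intensity trend and 65 with library weights. With those weights the LPS response without the label gave 264 calls, against 475. Leaving out 1 library gave 17 to 26 interaction calls (12 to 18 below 0, 3 to 10 above), 288 to 411 for LPS without the label and 19 to 40 with it. The label under PBS gave 2913 higher and 1780 lower genes, or 2215 and 2151 with median scaling, and under LPS 3039 and 1994, or 2349 and 2530. The cause was not tested. The 10 calls above 0 came without LPS replicate 2, and the 3 without PINT shRNA1+LPS replicate 1.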

Other observations

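Genes of epithelial-mesenchymal transition and invasion gave 0 calls for the interaction among 32 tested (limma), where 0.128% of all genes were called. At an unadjusted p under 0.05, 4 were below 0 and 1 above (12.5% and 3.12%, against 4.18% and 3.57% of all genes). On LPS 6 of them rose and 1 fell without the hairpin label (1.57% and 1.19% of all genes), and 2 rose with it (0.163%). PLAT, the tissue plasminogen activator, went from a mean of 2.74 to 5.88 FPKM without the label and from 5.35 to 5.72 with it, with an interaction of -0.88 ± 0.18 (limma, adjusted p = 0.165). PLAU, the urokinase activator, rose in both, from 4.53 to 11.2 FPKM and from 5.88 to 10.1, with an interaction of -0.49 ± 0.15 (limma, adjusted p = 0.451). TIMP3, an inhibitor of matrix proteases, fell without the label from 21.7 to 15.9 FPKM and was at 15.7 and 13.2 with it, with an interaction of 0.20 ± 0.079 (limma, adjusted p = 0.589).

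Mitotic genes of the G2/M list (35 tested) had 8 interactions below 0 in sign (22.9%, against 50.3% of all genes tested) and a median of 0.04. By limma 0 were called, where 0.128% of all genes were called. At an unadjusted p under 0.05, 1 was below 0 and 2 above (2.86% and 5.71%, against 4.18% and 3.57% of all genes). Interferon-stimulated genes (38 tested) had a median of 0.08, with LPS medians of -0.03 without the label and 0.04 with it.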
